A study of Mus musculus with 12 samples.

Results

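The genes described here are named as genes for proteins of the mitochondrial ribosome. They were taken as every gene whose symbol on the array platform starts with Mrpl or Mrps and goes on with a number, which gave 74 genes (47 Mrpl and 27 Mrps) of 12393 genes measured. Each gene was read from the probe set that carried its symbol alone and had the highest mean over all arrays. The rule uses symbols and mean levels and no difference between groups, although earlier results of these data were known when the family was chosen. Membership goes by name, and whether each product is part of the ribosome was not checked.

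The arrays held RNA from the jejunum of male C57BL/6 mice aged 6 to 8 weeks. They were wild-type mice or POR-null mice, the latter null for NADPH-cytochrome P450 reductase (POR), the enzyme that passes electrons to the microsomal cytochromes P450. Whether it is deleted in every tissue is not given in the labels. All mice were adapted for 14 days to a soya-free RM3 powdered diet. On that diet they stayed, as controls, or they had the flavonol quercetin mixed into it at 6.2 g per kg (7 mg per mouse) for the last 24 hours of life. Crossing the 2 genotypes with the 2 diets gave 4 groups: wild-type control, wild-type quercetin, POR-null control and POR-null quercetin. Each group had 3 arrays, and each array held RNA of scraped epithelium pooled from 3 mice. The replicate is therefore the pool (n = 3 per group), and the spread among single mice cannot be read. Mice were housed 3 per cage, and the labels do not say whether a pool was a cage.

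All values below are log2 intensities of 1-colour Affymetrix 430A arrays, or differences between them. Array medians lay between 5.94 and 6.01, and the correlation between arrays over all probe sets was 0.991 to 0.995 within groups and 0.989 to 0.995 between groups. The deleted gene itself was not analysed here, which leaves the genotype labels without a check. Transcripts of absorptive enterocytes were abundant in every pool, with Vil1 (villin of the brush border) at 12.12 to 12.32 and Fabp2 (the intestinal fatty acid binding protein) at 13.48 to 13.72. Markers of smooth muscle, which underlies the epithelium, varied between pools and were highest in 3. Their mean over 12 genes, each centred on the 12 arrays, reached 0.791 in pool 3 of the wild-type control group. It was 0.533 in pool 1 of the POR-null control group and 0.205 in pool 1 of the POR-null quercetin group. The other 9 pools lay between -0.300 and 0.066.

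Mitochondria translate a handful of inner membrane proteins from their own DNA, all of them subunits of the respiratory chain and of ATP synthase. The ribosome that makes them has RNA parts encoded in mitochondrial DNA, whereas its proteins are encoded in the nucleus, translated in the cytosol and imported. The large subunit (Mrpl names) holds the peptidyl transferase centre and the exit tunnel, and the small subunit (Mrps names) binds the messenger RNA and holds the decoding centre. Many of the proteins descend from bacterial ribosomal proteins and others occur only in mitochondria. In the jejunum, absorptive enterocytes depend on mitochondria for the energy of nutrient transport and lipid export. Nuclear genes for mitochondrial proteins are known targets of the transcription factors NRF1 and GABPA, a member of the ETS family.

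The nuclear start regions of these genes were examined first, because the genes lie apart in the genome (on 17 chromosomes) and have to be expressed together. RefSeq promoter windows on mouse build GRCm38.p6, reaching from 250 bases before to 50 bases after the outermost start, were held for 65 of the 74 genes and for 9887 measured genes in all. Of the 65 windows, 12 (18.5%) held the NRF1 motif on either strand (GCGC, then A and any base, then GCGC), against 8.68% of all windows. The motif was in 21.7% of the windows of nuclear respiratory chain subunits and in 7.89% of those of cytosolic ribosomal proteins. The 4 stretches of 80 bases shown here are those upstream of the start that hold it and overlap no other annotated gene, and are given to show how the motif sits in these promoters. They are written 5′ to 3′ along the strand of the gene, with the motif in capitals. The genes belong to the large subunit: Mrpl39 and Mrpl17, Mrpl32, whose precursor is trimmed by a mitochondrial protease before it joins the ribosome, and Mrpl12, the stalk protein that contacts translation factors.
Mrpl39: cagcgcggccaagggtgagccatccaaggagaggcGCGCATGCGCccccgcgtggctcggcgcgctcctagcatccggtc
Mrpl12: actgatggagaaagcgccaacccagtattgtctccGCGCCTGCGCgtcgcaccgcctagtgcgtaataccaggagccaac
Mrpl32: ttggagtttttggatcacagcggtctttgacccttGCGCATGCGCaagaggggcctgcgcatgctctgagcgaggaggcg
Mrpl17: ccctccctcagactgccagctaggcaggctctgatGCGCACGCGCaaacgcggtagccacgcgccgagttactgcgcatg

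The Mrpl39 stretch lies at chr16:84735325-84735404 on the minus strand, and its motif begins at position -125 from the start. The Mrpl12 stretch lies at chr11:120484521-120484600 on the plus strand, with the motif from position -81. The Mrpl32 stretch is at chr13:14613080-14613159 (minus strand, motif from -87) and the Mrpl17 stretch at chr7:105811092-105811171 (minus strand, motif from -49). Mrpl39 and Mrpl32 carry the same letters, and that of Mrpl12 is the form read from the opposite strand. A further 5 genes (Mrpl44, Mrpl57, Mrps21, Mrpl9 and Mrpl45) held the motif upstream of the start, in a stretch that overlaps an annotated gene.

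Other motifs were counted in the same windows on both strands. The ETS motif CCGGAAG was in 22 windows (33.8%), against 15.0% of all windows, 25.0% for the respiratory chain and 50.0% for cytosolic ribosomal proteins. The motif of YY1, another factor known at such promoters, searched as a consensus that ends in ATGGCGG, was in 4 windows (6.15%), against 1.67% of all. The general promoter elements were near the background, with the GC box GGGCGG in 52.3% against 57.5% and the letters CCAAT in 38.5% against 38.3%. The TATA box letters TATAAA were in 4 windows (6.15%), against 10.1%. The NRF1 and ETS motifs were found together in 4 windows, and 35 of the 65 held neither. The windows were rich in CpG: 60 of 65 (92.3%) had a ratio of observed to expected CpG above 0.6, against 61.3% of all windows, at a median GC content of 58.0% against 59.3%. The NRF1 motif itself contains CpG, and no comparison at matched CpG was made. These matches are descriptions of letters, not of bound factors.

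**Figure D1:**
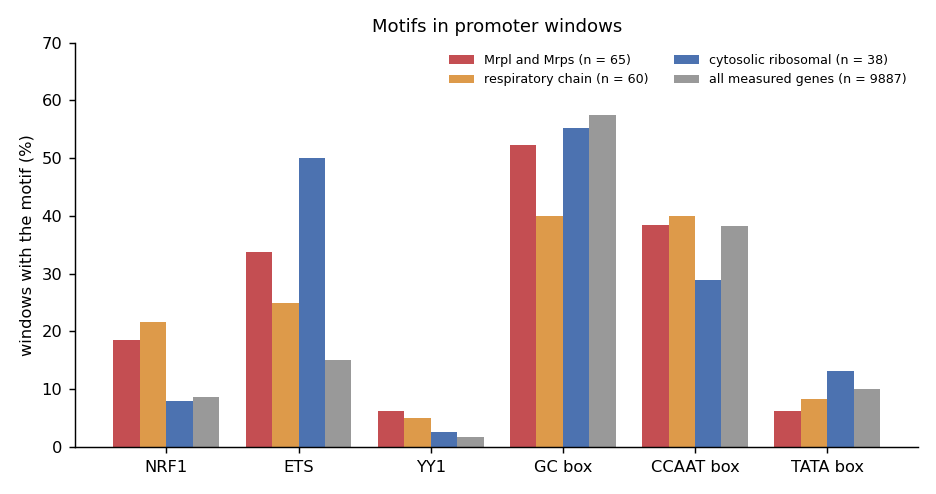
Share of promoter windows of 300 bases (per cent, y axis) that hold each of 6 motifs, for the 65 windows of Mrpl and Mrps genes, 60 of respiratory chain subunits, 38 of cytosolic ribosomal proteins and 9887 measured genes. The NRF1, ETS and YY1 bars of the Mrpl and Mrps genes stand above those of all genes (18.5%, 33.8% and 6.15% against 8.68%, 15.0% and 1.67%), and the bars of the CCAAT box are level.

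A further feature of these loci was a divergent neighbour. Of the 65 genes, 21 (32.3%) had another gene starting within 500 bases on the opposite strand, against 13.7% of the genes with a window. In 1 of these arrangements both genes encode mitochondrial ribosomal proteins, Mrpl46 of the large and Mrps11 of the small subunit. Others join a mitochondrial ribosomal protein with a mitochondrial partner, such as Mrps12 with the mitochondrial seryl-tRNA synthetase Sars2, Mrpl43 with the mitochondrial helicase Twnk, and Mrpl47 with the complex I subunit Ndufb5. Mrpl49 lies beside Fau, whose product gives a protein of the cytosolic ribosome.

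On the arrays, all 74 genes lay above the dimmest 25% of probe sets. The choice of the probe set with the highest mean favours this, and the share for all genes was not counted. The mean log2 level of a probe set over the 12 arrays ran from 5.37 for Mrpl1 to 9.30 for Mrpl15, with a median of 7.42. These levels depend on the probes and do not rank the genes. The spread between pools of 1 group was small, with a median SD over genes of 0.105 against 0.12 for all probe sets. The genes were read from their probe set with the highest mean, so these medians are not like for like. The steadiest were Mrps16 (SD 0.035), a small subunit protein with a bacterial counterpart, Mrpl36 (0.039) and Mrpl57 (0.057). The most variable were Mrps6 (0.200), Mrps22 (0.187) and Mrpl19 (0.176). Mrpl36 lay between 5.89 and 6.03 over all 12 pools, whereas Mrps6 lay between 5.99 and 6.64, with both extremes in control diet pools.

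The first comparison asked whether the POR-null genotype went with a change in these transcripts over both diets. No gene of the family passed the test, but the family as a group lay lower in POR-null mice by a small amount. Of the 74 genes, 0 were called at an adjusted p under 0.05 by limma with Benjamini-Hochberg adjustment over 22626 probe sets, as were 0% of all probe sets. At an unadjusted p under 0.05, 8 genes were lower and 0 higher in POR-null mice, against 2.58% and 2.43% of all probe sets. The POR-null minus wild-type difference, averaged over the diets, was below 0 for 55 genes (74.3%), against 50.0% of all probe sets. Its median was -0.055 log2 units, against -0.002 over all probe sets, with genes between -0.28 and 0.09. The 95% interval lay within a 1.5-fold change in either direction for 74 of 74 genes, as for 99.0% of probe sets. On the control diet alone it did so for 73 genes, all but Mrps15 (96.5% of probe sets), and on quercetin for 74 (97.1%).

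**Figure D2:**
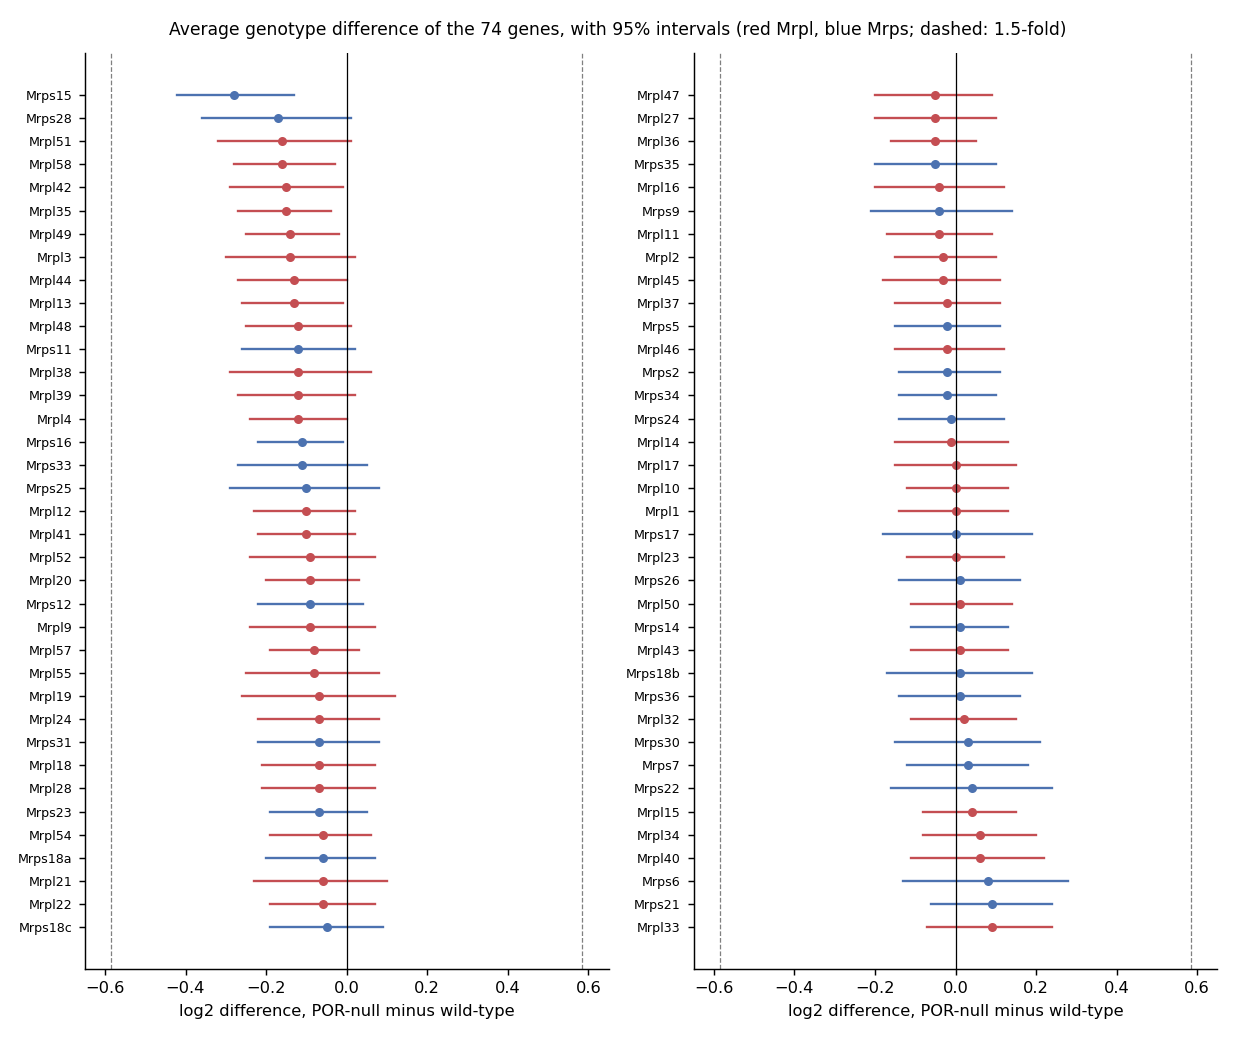
The POR-null minus wild-type log2 difference averaged over the diets (x axis) for each of the 74 genes in order, with 95% intervals from limma (red, Mrpl; blue, Mrps; dashed lines, 1.5-fold). The 55 genes below 0 make up the left panel and the upper part of the right one, Mrps15 comes first at -0.28, and no interval reaches a dashed line.

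The pools show the size of this shift. The mean of the 74 genes, each centred on the 12 arrays, was 0.033, -0.026 and 0.089 in the wild-type control pools and -0.003, 0.059 and 0.006 in the wild-type quercetin pools. It was -0.031, -0.005 and -0.052 in the POR-null control pools and -0.019, -0.010 and -0.041 in the POR-null quercetin pools. All 6 POR-null pools lay below 0, and 2 of the 6 wild-type pools did so too, so the genotypes overlapped. The highest pool, wild-type control pool 3, is also the highest in smooth muscle markers. Without the 3 pools highest in those markers the median difference over both diets was -0.042 log2 units with 53 genes below 0. With a score of intestinal segment as covariate it was -0.048. T cell markers lay higher in POR-null mice on the control diet, where the mean of 13 genes was 0.036 to 0.198 against -0.225 to -0.131 in wild-type pools, and overlapped on quercetin (-0.097 to 0.105 against 0.053 to 0.107). Of 14 markers of proliferating crypt cells, 10 were lower in POR-null mice over both diets (median -0.048). The part of either list in the result was not tested. In bulk RNA, fewer cells of a type and less RNA per cell cannot be told apart.

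**Figure D3:**
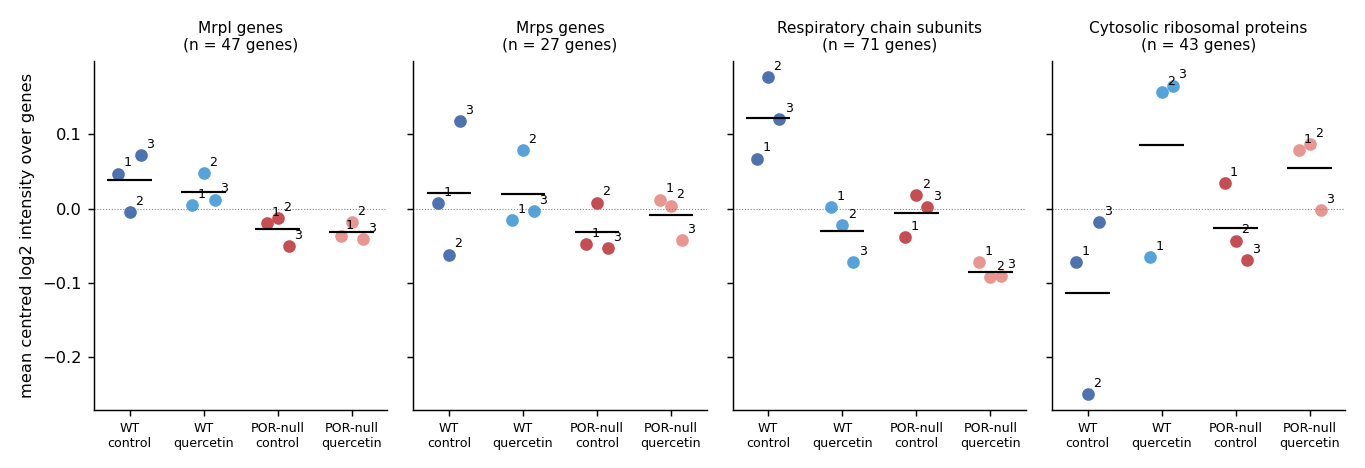
Mean centred log2 intensity (y axis) of 4 gene lists in each of the 12 pools, with the pool number beside each point and the group mean as a line. The Mrpl genes lie between -0.051 and 0.072 and the Mrps genes between -0.062 and 0.117, with pool 3 of the wild-type control group at the top of both, whereas the respiratory chain subunits are high in the wild-type control pools (0.067, 0.177 and 0.120) and low in the POR-null quercetin pools (-0.072, -0.092 and -0.090).

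The family was then split by name (Mrpl or Mrps), origin and position in the ribosome. The split by name is not quite one by subunit, since Mrps18a and Mrps30 belong to the large subunit and were counted as Mrps genes. Of the 47 Mrpl genes, 38 were below 0 with a median of -0.065, and of the 27 Mrps genes 17 were below 0 with a median of -0.020. By pool, the mean of the Mrpl genes was -0.005 to 0.072 in the 6 wild-type and -0.051 to -0.013 in the 6 POR-null pools, which do not overlap. The mean of the Mrps genes was -0.062 to 0.117 and -0.053 to 0.012, which overlap. The 44 genes with a counterpart in the bacterial ribosome had 32 below 0 (median -0.046), and the other 30 had 23 below 0 (median -0.077). All 6 genes of proteins around the exit of the peptide tunnel were below 0, with a median of -0.059. The highest of them was at -0.0, and none had an unadjusted p under 0.05. Of 3 genes of the stalk and factor site, 2 were below 0 (median -0.042). The 12 genes with the NRF1 motif had a median of -0.035 against -0.05 for the 53 without it, and the 22 with the ETS motif -0.06 against -0.04 for the other 43. The ranges of all these groups overlapped, and no difference between them was tested.

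The gene with the lowest unadjusted p was Mrps15, which encodes a small subunit protein with a bacterial counterpart that contacts the ribosomal RNA. Its log2 levels were 7.17, 7.24 and 7.46 in the wild-type control pools and 6.79, 6.76 and 7.07 in the POR-null control pools. They were 7.09, 7.10 and 6.99 in the wild-type quercetin pools and 6.94, 6.94 and 6.89 in the POR-null quercetin pools. On both diets every POR-null pool lay below every wild-type pool. The difference was -0.42 ± 0.10 (SE, n = 3 pools per group) on the control diet, which is 1.33-fold, and -0.14 ± 0.10 on quercetin. Averaged over the diets it was -0.28 ± 0.07 (1.21-fold, n = 6 pools per genotype), and it did not pass (adjusted p = 0.367 by limma). Its second probe set pointed the same way, with -0.16 ± 0.08 over both diets and -0.27 ± 0.11 on the control diet. Without POR-null control pool 3, the highest POR-null pool for this gene, the average difference was -0.33 (adjusted p = 0.0708 by limma). Without other single pools it was -0.31 to -0.23, with an adjusted p of 0.306 to 0.753 by limma. Without the 3 pools highest in smooth muscle markers it was -0.22 (adjusted p = 0.869 by limma).

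Mrpl35, a large subunit protein with a bacterial counterpart, had levels of 7.68, 7.55 and 7.61 in wild-type and 7.41, 7.43 and 7.26 in POR-null control pools. The groups did not overlap, with a difference of -0.25 ± 0.08. On quercetin the levels were 7.47, 7.52 and 7.53 against 7.40, 7.45 and 7.48, which overlap. Averaged over the diets the difference was -0.15 ± 0.05 (adjusted p = 0.842 by limma).

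Mrpl58, also known as Ict1, is a peptidyl-tRNA hydrolase that frees stalled ribosomes and is also built into the large subunit. It had levels of 7.41, 7.43 and 7.40 in wild-type and 7.27, 7.26 and 7.36 in POR-null control pools. On quercetin the wild-type pools were at 7.37, 7.50 and 7.22 and the POR-null pools at 7.17, 7.25 and 7.08. The groups were apart on the control diet and overlapped on quercetin, at an average difference of -0.16 ± 0.06 (adjusted p = 0.891 by limma).

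Mrps16 and Mrpl49, a large subunit protein found in mitochondria but not in bacteria, differed by less but did so on both diets. Mrps16 was at 8.29, 8.34 and 8.34 in wild-type control pools and at 8.16, 8.16 and 8.24 in POR-null ones. On quercetin it was at 8.32, 8.29 and 8.27 against 8.17, 8.24 and 8.20. Its POR-null pools thus lay below the wild-type pools of the same diet, with an average difference of -0.11 ± 0.05. Mrpl49 was at 6.32, 6.43 and 6.39 against 6.20, 6.22 and 6.28 on the control diet, and at 6.28, 6.24 and 6.22 against 6.20, 6.19 and 5.98 on quercetin, with an average difference of -0.14 ± 0.06. Together with Mrps15 these were the 3 genes (4.05%) whose genotypes did not overlap on either diet, each time lower in POR-null mice, as 0.287% of all probe sets did. They were picked out by this pattern after their values were seen, and none passed the test. The second probe set of Mrpl49 gave -0.06 ± 0.07.

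Differences above 0 were small. The 3 genes with the lowest p in that direction were Mrps21 (0.09 ± 0.07), Mrpl33 (0.09 ± 0.07) and Mrpl34 (0.06 ± 0.07), all proteins with bacterial counterparts. The second probe sets of Mrpl33 and Mrpl34 had the opposite sign, -0.06 ± 0.06 and -0.05 ± 0.06. Mrpl12, the stalk protein, had -0.10 ± 0.06, and Mrps12, which lies at the decoding centre, -0.09 ± 0.06. Mrpl45 and Mrpl47, both at the tunnel exit, had -0.03 ± 0.07 and -0.05 ± 0.07. Mrps30, which belongs to the large subunit despite its name, had 0.03 ± 0.08.

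On the control diet alone, 50 of the 74 genes (67.6%) were lower in POR-null mice, against 45.9% of all probe sets, and on quercetin 57 (77.0%), against 53.7%. The medians were -0.058 and -0.047, against 0.01 and -0.01 over all probe sets, and 0 genes were called on either diet, as were 0% of probe sets. At an unadjusted p under 0.05, 11 genes were lower and 1 higher on the control diet, against 2.85% and 3.24% of probe sets. On quercetin 2 were lower and 0 higher, against 2.05% and 1.83%. These 2 comparisons share no array, and 36 genes (48.6%) were below 0 in both, against 24.6% of all probe sets, while 3 (4.05%) were above 0 in both, against 23.5%. The sizes did not go together: Pearson's r across the 74 genes, which are not independent, was 0.0. Among the wild-type control pools, leaving out pool 3 gave a control diet median of -0.031 and leaving out pool 2 gave -0.095, and it was -0.030 without the 3 pools highest in smooth muscle markers. Markers of distal small intestine separated the genotypes on quercetin. All 10 were lower in POR-null mice, with a median of -0.358 and 7 at an unadjusted p under 0.05. Their pool means were -0.326 to 0.001 against 0.026 to 0.723 in wild-type mice, which do not overlap. On the control diet 8 of the 10 were higher in POR-null mice, with a median of 0.318 and 3 at that p. There the pool means were -0.039 to 0.184 against -0.607 to 0.196 in wild-type mice, which overlap. With the segment score as covariate the median of the 74 genes on quercetin was -0.013 in place of -0.047, with 40 genes below 0.

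**Figure D4:**
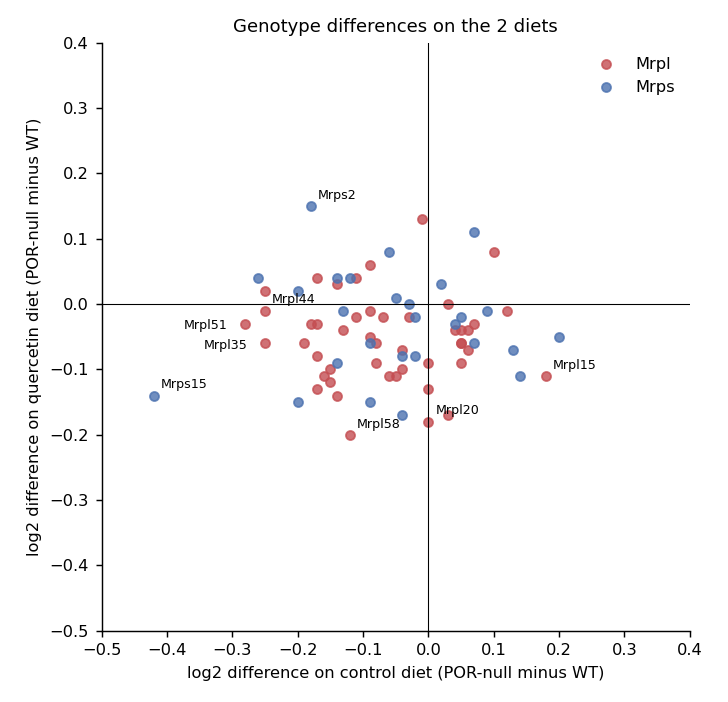
The POR-null minus wild-type log2 difference of each gene on the control diet (x axis) and on quercetin (y axis), 1 point per gene (red, Mrpl; blue, Mrps). The lower left field holds 36 genes and the upper right field 3, and Mrps15 is farthest left at -0.42.

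Pools without overlap were counted in the same way. On the control diet 13 genes had every POR-null pool below every wild-type pool (4.29% of all probe sets did) and 1, Mrpl15, had the reverse (5.15%). On quercetin 9 genes were lower without overlap (5.41%) and 0 higher (3.77%). The 13 included Mrpl12, Mrpl35, Mrpl44, Mrpl58, Mrps12 and Mrps15, and the 9 included Mrpl15, Mrpl20, Mrps14, Mrps15 and Mrps16.

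Mrpl44, a large subunit protein with a ribonuclease III fold, differed between genotypes on the control diet more than on quercetin by its values. It stood at 7.66, 7.58 and 7.59 in wild-type and 7.54, 7.22 and 7.32 in POR-null control pools, a difference of -0.25 ± 0.09. On quercetin it stood at 7.63, 7.66 and 7.62 against 7.50, 7.69 and 7.68, a difference of -0.01 ± 0.09. The 2 differences were not shown to differ, since the interaction was 0.24 ± 0.13 (adjusted p = 0.956 by limma).

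Mrpl20, a large subunit protein with a bacterial counterpart, showed the opposite order of diets. Its control diet levels were 8.63, 8.65 and 8.60 in wild-type and 8.61, 8.63 and 8.65 in POR-null pools. On quercetin they were 8.69, 8.61 and 8.64 in wild-type and 8.40, 8.40 and 8.60 in POR-null pools. The quercetin diet difference was -0.18 ± 0.08, carried by 2 of the 3 POR-null pools, against 0.00 ± 0.08 on the control diet, with an interaction of -0.18 ± 0.11 (adjusted p = 0.956 by limma).

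The second comparison asked what 24 hours of quercetin did to the same transcripts. Here the family showed no common direction. Of the 74 genes, 0 were called in wild-type mice, against 0.0133% of all probe sets, 0 in POR-null mice, against 0%, and 0 averaged over the genotypes, against 0.00884%. Averaged over the genotypes, 36 genes were above 0 and 38 below (51.4%, against 43.1% of probe sets), with a median of -0.006 against 0.013 and a range of -0.19 to 0.17. At an unadjusted p under 0.05, 3 genes were higher and 3 lower, against 3.96% and 3.85% of probe sets. In wild-type mice these counts were 2 and 3 (against 4.56% and 4.16%) and in POR-null mice 1 and 2 (against 2.04% and 1.98%). The difference was below 0 for 39 genes in wild-type mice, against 41.6% of probe sets, and for 35 in POR-null mice, against 49.1%. Diets without overlap were seen in wild-type mice for 4 genes higher and 7 lower on quercetin (6.99% and 4.57% of probe sets), and in POR-null mice for 2 higher and 4 lower (4.34% and 4.71%). The 95% intervals lay within 1.5-fold for 74 of 74 genes in each of the 3 comparisons, as for 95.6%, 97.4% and 98.9% of probe sets. The quercetin effects in the 2 genotypes share no array, and 20 genes were below 0 in both and 20 above (27.0% each), against 22.4% and 30.5% of probe sets.

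The distal markers also differed with diet in wild-type mice. Their mean over 10 genes was -0.607, -0.494 and 0.196 in the control and 0.026, 0.546 and 0.723 in the quercetin pools, which overlap, and in POR-null mice it was -0.039 to 0.184 and -0.326 to 0.001. With the segment score as covariate the median of the 74 genes in wild-type mice was -0.065 in place of -0.01, and 0 genes were called.

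Single genes differed by little. Mrpl34, a large subunit protein with a bacterial counterpart, was at 8.23, 8.46 and 8.47 in wild-type control pools and at 8.26, 8.17 and 7.94 in wild-type quercetin pools. In POR-null pools it was at 8.36, 8.36 and 8.41 without and 8.32, 8.24 and 8.20 with quercetin. The groups overlapped in wild-type mice and were apart in POR-null mice, with an average difference (quercetin minus control) of -0.19 ± 0.07 (adjusted p = 0.562 by limma). Its other probe set gave 0.03 ± 0.06, so the lower values rest on 1 probe set.

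Mrps18c belongs to a trio of paralogues, Mrps18a, Mrps18b and Mrps18c, which all descend from 1 bacterial ribosomal protein. Mrps18a sits in the large subunit, while the other two sit in the small one. Mrps18c was at 7.70, 7.54 and 7.66 in wild-type control and 7.38, 7.52 and 7.55 in wild-type quercetin pools. In POR-null pools it was at 7.44, 7.74 and 7.67 without and 7.47, 7.39 and 7.35 with quercetin. The diets overlapped in both genotypes, and the average difference was -0.18 ± 0.06 (adjusted p = 0.562 by limma). Mrps18a had -0.02 ± 0.06 and Mrps18b 0.10 ± 0.08. The genotype differences of the trio were -0.05 ± 0.06 for Mrps18c, -0.06 ± 0.06 for Mrps18a and 0.01 ± 0.08 for Mrps18b. No difference between the paralogues was tested.

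The genes with the lowest p above 0 were Mrps26, a small subunit protein specific to mitochondria, Mrpl44 and Mrps5, a small subunit protein with a bacterial counterpart. Mrps26 was at 6.75, 6.54 and 6.89 in wild-type control and 6.91, 7.04 and 6.83 in wild-type quercetin pools, and at 6.74, 6.69 and 6.87 without and 6.91, 6.99 and 6.80 with quercetin in POR-null pools. The diets overlapped in both genotypes at an average of 0.17 ± 0.07. Mrps5 was at 6.36, 6.40 and 6.38 against 6.63, 6.41 and 6.51 in wild-type mice, apart by a narrow gap, and at 6.22, 6.44 and 6.42 against 6.43, 6.59 and 6.48 in POR-null mice, for an average of 0.14 ± 0.06. Mrpl44 had 0.15 ± 0.06 on average, made of 0.03 ± 0.09 in wild-type and 0.26 ± 0.09 in POR-null mice, and its other 2 probe sets gave 0.04 ± 0.06 and -0.01 ± 0.06. Mrpl49 had -0.12 ± 0.06, while its other probe set gave 0.04 ± 0.07.

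Among the remaining functional groups, Mrpl12 had -0.09 ± 0.06, Mrps12 -0.02 ± 0.06, Mrpl58 -0.09 ± 0.06, Mrpl45 0.03 ± 0.07, Mrpl47 0.05 ± 0.07 and Mrps30 0.11 ± 0.08. In POR-null mice alone the lowest p went to Mrpl44, Mrpl22 (0.15 ± 0.09) and Mrps5 (0.14 ± 0.09) above 0, and to Mrps18c (-0.21 ± 0.09), Mrpl20 (-0.16 ± 0.08) and Mrpl43 (-0.13 ± 0.08) below 0.

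**Figure D5:**
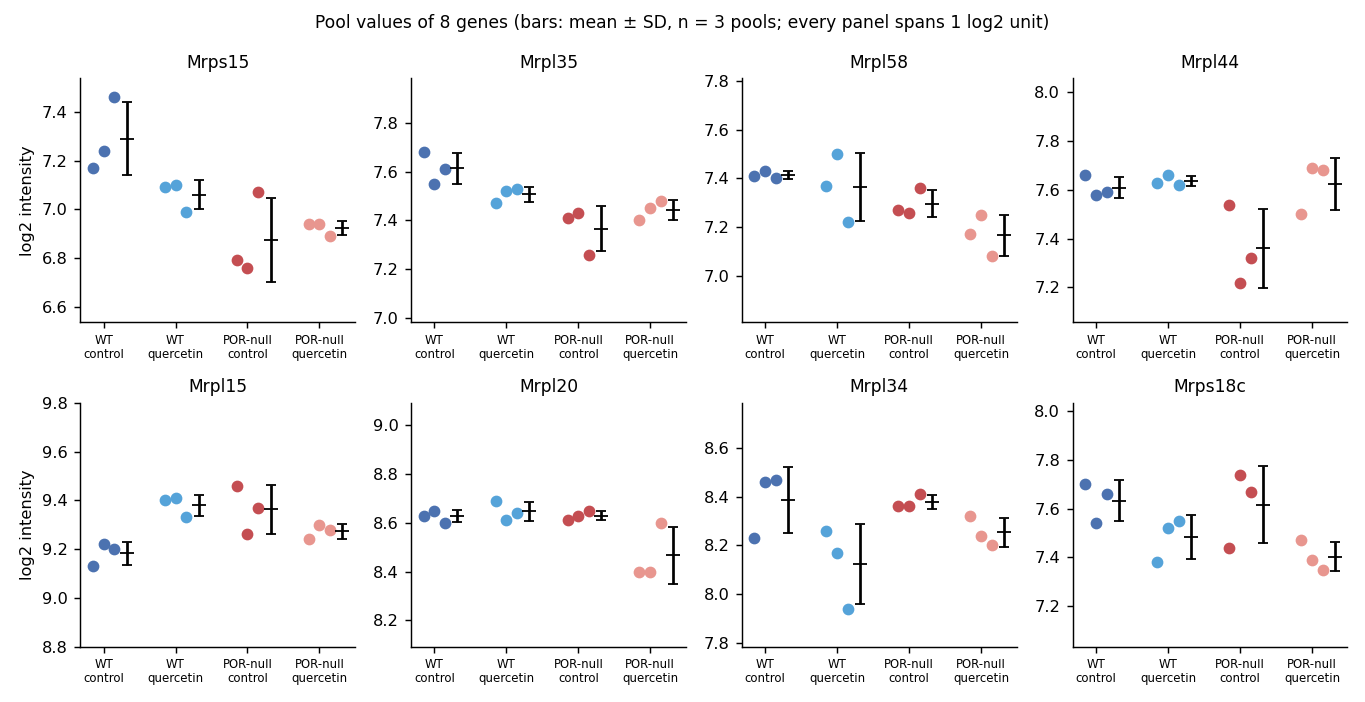
Log2 intensity (y axis) of 8 genes in the 3 pools of each group, with the mean and SD beside the points and every panel spanning the same range. For Mrps15 the POR-null pools lie under the wild-type pools on each diet, for Mrpl20 only 2 POR-null quercetin pools (both 8.40) lie apart from the rest, and for Mrpl15 the order of the genotypes turns with diet.

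The third comparison was whether the response to quercetin differed with genotype. By limma 0 of the 74 genes were called for this interaction, as were 0% of probe sets, and at an unadjusted p under 0.05 1 gene was above and 2 below 0, against 2.15% and 2.89%. Its median was 0.017, against -0.02 over all probe sets. The standard errors are larger here, and the 95% interval lay within 1.5-fold for 70 of 74 genes, as for 87.2% of probe sets.

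Mrpl15, a large subunit protein with a bacterial counterpart, had levels of 9.13, 9.22 and 9.20 in wild-type control pools and 9.40, 9.41 and 9.33 in wild-type quercetin pools. In POR-null mice it was at 9.46, 9.26 and 9.37 without and 9.24, 9.30 and 9.28 with quercetin. POR-null pools were thus all higher than wild-type pools on the control diet and all lower on quercetin, a reversal seen in 1 of 74 genes (1.35%) and in 0.446% of probe sets. The interaction was -0.29 ± 0.11 (adjusted p = 0.956 by limma). Mrpl15 has 7 probe sets, and the interaction in the other 6 was between -0.44 and -0.05. The reversal itself was not common to them: their genotype difference was -0.01 to 0.22 on the control diet and -0.22 to 0.04 on quercetin. Their quercetin difference in wild-type mice was 0.0 to 0.41.

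Mrps14, a small subunit protein, had a negative interaction too, with levels of 8.09, 7.87 and 7.99 in wild-type control and 8.14, 8.19 and 8.21 in wild-type quercetin pools, and with 8.20, 8.10 and 8.06 without and 8.12, 8.04 and 8.05 with quercetin in POR-null mice. Its interaction was -0.25 ± 0.11 (adjusted p = 0.956 by limma), while its second probe set gave 0.05 ± 0.12. Mrps2, a small subunit protein, had the largest positive interaction, 0.33 ± 0.12 (adjusted p = 0.956 by limma). Its levels were 6.88, 6.64 and 6.72 in wild-type control, 6.51, 6.63 and 6.46 in wild-type quercetin, 6.64, 6.51 and 6.54 in POR-null control and 6.69, 6.73 and 6.63 in POR-null quercetin pools. The second probe set of Mrps2 gave -0.30 ± 0.12, so the array gives no single direction for this gene.

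Agreement between probe sets was limited throughout. The family had 127 single-symbol probe sets, and 33 genes had more than 1. For the average genotype difference all probe sets of a gene had the same sign in 15 of the 33 genes, and 36 of the 53 probe sets not chosen were below 0, with a median of -0.03. For the average quercetin difference the sign was shared in 9 of the 33 genes. The genes whose probe sets differed in sign with an unadjusted p under 0.05 in one of them were Mrpl34, Mrpl44, Mrpl49 and Mrps2 for quercetin and Mrpl42 for genotype. For the interaction they were Mrps2 and Mrps14. Mrpl42, a mitochondria-specific protein, had -0.15 ± 0.06 in the chosen and 0.02 ± 0.09 in the other, dimmer probe set.

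The neighbours at shared start regions were compared pair by pair for the average genotype difference. Mrpl46 had -0.02 ± 0.06 and Mrps11 -0.12 ± 0.06, Mrps12 -0.09 ± 0.06 and Sars2 -0.03 ± 0.06, and Mrpl47 and Ndufb5 -0.05 ± 0.07 and -0.05 ± 0.06. Mrpl49 had -0.14 ± 0.06 and Fau -0.01 ± 0.06. For quercetin the values were -0.02 ± 0.06 for Mrpl46 and 0.07 ± 0.06 for Mrps11. They were 0.05 ± 0.07 for Mrpl47 and -0.07 ± 0.06 for Ndufb5. Mrps12 had -0.02 ± 0.06 and Sars2 -0.07 ± 0.06. Mrpl49 had -0.12 ± 0.06 and Fau -0.02 ± 0.06. None of these genes passed the test.

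The rest of the mitochondrial expression machinery was read from lists of genes, against all probe sets, of which 50.0% were lower in POR-null mice (median -0.002) and 0% were called. Of 16 genes of mitochondrial DNA maintenance and transcription, 14 were lower in POR-null mice (median -0.092) and 0 were called. Mterf2, a DNA-binding protein of the mitochondrial transcription termination factor family, had -0.21 ± 0.06, and Ssbp1, which coats single-stranded mitochondrial DNA, had -0.20 ± 0.08 for genotype and 0.21 ± 0.08 for quercetin. Of 16 genes of ribosome assembly 12 were lower (median -0.023), among them Mterf4, which works with a ribosomal RNA methyltransferase in large subunit assembly, at -0.19 ± 0.07. Eral1, which chaperones the RNA of the small subunit, had 0.14 ± 0.05 for quercetin. Of 9 translation factors 5 were lower (median -0.028), near the share of all probe sets, including Mtfmt, which formylates the initiator methionyl-tRNA, at -0.19 ± 0.05 (adjusted p = 0.593 by limma).

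Of 13 genes for charging mitochondrial tRNAs 10 were lower in POR-null mice (median -0.018). Gars, the glycyl-tRNA synthetase that serves both cytosol and mitochondria, differed the other way, by 0.34 ± 0.08 for genotype (adjusted p = 0.233 by limma) and 0.33 ± 0.08 for quercetin (adjusted p = 0.49). Of 4 ribosomal proteins with other names, which include Dap3, Ptcd3 and Chchd1 of the small subunit, 3 were lower (median -0.015). Of 10 regulators of mitochondrial gene expression 7 were lower (median -0.054). Ppargc1a, the coactivator PGC-1 alpha, had -0.13 ± 0.13 for genotype and 0.09 ± 0.13 for quercetin. ND5, the 1 gene of mitochondrial DNA measured here and a product of this ribosome, had 0.01 ± 0.08 for genotype and 0.00 ± 0.08 for quercetin. No gene of these lists was called.

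The respiratory chain and the cytosolic ribosome were set beside the family. Of 71 nuclear genes for subunits of the respiratory chain and ATP synthase, 67 were lower in POR-null mice (median -0.083). On quercetin 69 were lower (median -0.113), and 0 were called in either comparison. Of all probe sets 50.0% and 43.1% were lower. At an unadjusted p under 0.05, 19 of the 71 were lower for genotype and 29 for quercetin, against 2.58% and 3.85% of probe sets. For the mitochondrial ribosomal genes the medians were -0.055 for genotype and -0.006 for quercetin. Of 43 cytosolic ribosomal protein genes, 32 were higher in POR-null mice (median 0.017) and 41 were higher on quercetin (median 0.138), with 0 called. Of all 22626 probe sets, 11107 and 12673 were higher. At an unadjusted p under 0.05, 1 of the 43 was higher for genotype and 19 for quercetin, against 2.43% and 3.96% of probe sets. Within wild-type mice the quercetin median of the 43 was 0.2, with 19 higher at that p, against 4.56% of probe sets. In POR-null mice it was 0.08, with 1 higher, against 2.04%. Of 14 markers of proliferating crypt cells, 13 were higher on quercetin on average (median 0.133). Of 13 T cell markers, all 13 were higher on quercetin in wild-type mice (median 0.233) and 3 in POR-null mice (median -0.077). The part of these markers was not tested. The average genotype and quercetin differences rest on the same 12 arrays, with all 4 groups entering both, and differences between the lists were not tested. Example genes were Ndufab1, a carrier protein subunit of complex I, with -0.18 ± 0.05 for genotype and -0.17 ± 0.05 for quercetin, and Rpl27a of the cytosolic ribosome with 0.48 ± 0.10 for quercetin (adjusted p = 0.341 by limma).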

How the data were processed

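The deposited series table holds the authors' log2 intensity per probe set for 12 arrays, 1 per pool. MAS5 and RMA are named in the submitters' processing notes, with no word on which gave the deposited values. Arrays were not normalised again. Of 22690 probe sets, 64 controls were left out and 22626 tested. The platform table gave 1 symbol to 20380 of them, several to 691 and none to 1555. Mrpl30, Mrpl53, Mrps10 and Mrps27 were not analysed here.

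A mean per group was fitted in R 4.3.3 with limma 3.58.1; residual degrees of freedom were 8 and the prior added 6.75. It gave 7 contrasts (quercetin within either genotype, genotype within either diet, their interaction and both averages), with Benjamini-Hochberg adjustment over all probe sets and a threshold of 0.05. Errors are SE of the model unless named otherwise. The number of arrays limits the precision, and no test of 3 pools against 3 by exact permutation can go below 0.1. P-values set each difference against the spread between pools, moderated over all probe sets, and that spread may be partly technical. Tables were joined in Python 3.11.15 and figures drawn with matplotlib 3.10.9.

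The members and lists were chosen with earlier results of these data known. Named genes were, per contrast, the 3 with the smallest p in each direction, those most and least variable between pools, those whose probe sets disagreed, 10 members of known role, and 1 gene per direction of each list. Promoter windows are those of RefSeq, and motifs were matched without mismatches. Whether pools of the same number are paired was checked on deviations from group means. The 18 correlations of same-numbered pools were -0.139 to 0.185, so the numbers do not pair them. The alternatives, listed in the closing section, include leaving out each pool.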

Additional observations from a re-analysis of the deposited data

How the results depend on the processing

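In each of 23 alternatives (12 that leave out 1 pool, 11 others), 0 of the 74 genes were called in every comparison to which the alternative applies. Calls over all probe sets ranged from 0 to 47 for the average genotype difference (47 without POR-null control pool 3, 0 as reported) and from 1 to 8 for the average quercetin difference (2 as reported). They ranged from 0 to 23 for quercetin in wild-type mice (3 as reported), from 0 to 24 for genotype on each diet (0) and from 0 to 2 for the interaction (0). Of 158 recomputed medians of the family, 155 moved by less than the SD between pools of 0.038. The 3 others were -0.065 for quercetin in wild-type mice and 0.057 for the interaction with the segment score as covariate, and -0.028 for the interaction without the 3 arrays highest in smooth muscle. The average genotype median stayed between -0.072 and -0.036. A block for the replicate number, which does not pair the pools, gave a median of -0.055 for that difference and called 0 genes.

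Of 61 values of named genes, 41 kept their sign under every alternative, and 36 of 1335 recomputed values turned; the cause was not tested. With the second probe set, the quercetin difference in wild-type mice was 0.36 for Mrps2 and 0.05 for Mrpl34. The genotype difference was then -0.01 for Mrpl15 and -0.04 for Mrps14 on the control diet, and -0.04 for Mrps2 and -0.08 for Mrpl34 on quercetin. The interaction was -0.30 for Mrps2 and 0.05 for Mrps14. The average quercetin difference was 0.21 for Mrps2, 0.03 for Mrpl34 and 0.04 for Mrpl49, and the average genotype difference -0.06 for Mrpl33, -0.05 for Mrpl34 and 0.02 for Mrpl42. With the mean of probe sets Mrps2 gave 0.08 for quercetin in wild-type mice and on average. Values near 0 crossed it when single pools were left out. The average quercetin difference then ranged from -0.04 to 0.02 for Mrps12, -0.05 to 0.02 for Mrps18a and 0.0 to 0.07 for Mrpl45, and the average genotype difference from -0.06 to 0.06 for Mrps18b, -0.04 to 0.07 for Mrps30 and -0.07 to 0.01 for Mrpl45. Mrps12 gave 0.0 for quercetin with array weights and with quantile normalization, and Mrpl45 gave -0.05 with the segment score. Without the 3 arrays highest in smooth muscle, Mrps18a gave 0.04 for quercetin and Mrpl45 0.02 for genotype. A fit of only the arrays compared does not apply to the interaction or the averages. The segment score and the set of 3 arrays high in smooth muscle were taken from earlier results of these data.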
